A study of Mus musculus with 11 samples.

Results

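The genes of cholesterol synthesis Hmgcs1, Fdps, Fdft1, Sqle, Ebp, Sc5d and Dhcr7 were followed in intermediate progenitors (IPs) of the embryonic cortex of Tbr2 conditional knockout mice. Their probes were found by gene symbol alone, and every probe carrying one of these 7 symbols was taken. Of the 7 genes, 5 had a probe named here, with 8 probes of the 45281 on the array, and 7 of the 8 were detected on all arrays and were among the 16411 probes tested. Hmgcs1 and Fdft1 had no probe that could be named and are not analysed here.

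The arrays held RNA of EGFP-labeled IPs, isolated by FACS from Tbr2 conditional knockout cortices, with 6 arrays at embryonic day 16 (E16) and 5 at E13. Both groups carried the same Tbr2 fl/fl genotype and the Tbr2-EGFP reporter, and no control array was used, so each difference below is one of stage within Tbr2 mutant (Mut) IPs. Elsewhere the study made Tbr2 cKO cortices with Emx1-Cre, which acts in progenitors of the dorsal telencephalon and their progeny. For the arrays it names no Cre driver. Replicates of the 2 stages came from 3 litters that could not be assigned to arrays, so that p-values measure the spread between embryos or sorts, some of them littermates.

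Cholesterol is built from acetyl units, first through the mevalonate pathway to farnesyl diphosphate, then through squalene to lanosterol, and last through a series of demethylation, isomerisation and reduction steps. The developing brain makes most of its own cholesterol once the blood-brain barrier closes, and dividing cells need it for new membrane. Most of these enzymes are transcribed under SREBP2, a membrane-bound transcription factor released when sterols run low, which acts together with the CCAAT-box factor NF-Y and the GC-box factor Sp1.

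The 250 bases upstream of the start of Ebp, Sc5d and Dhcr7 are shown because these are the measured genes with a RefSeq promoter entry, and Ebp is the one that changed most clearly. Capitals mark matches on either strand to a CCAAT box (CCAAT), a GC box (GGGCGG), an E-box (CACGTG) or the core of a sterol regulatory element (CACNCCAC), in RefSeq GRCm38.p6, 5′ to 3′ in the direction of transcription. Dhcr7 has 3 annotated starts, of which the one with most matches is shown.
Ebp, chrX:8193513-8193762, minus strand: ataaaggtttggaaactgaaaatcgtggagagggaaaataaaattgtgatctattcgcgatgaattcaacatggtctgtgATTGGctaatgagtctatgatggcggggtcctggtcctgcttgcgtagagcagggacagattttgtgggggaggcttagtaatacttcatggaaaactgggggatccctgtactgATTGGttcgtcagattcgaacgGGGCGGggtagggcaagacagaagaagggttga
Sc5d, chr9:42264301-42264550, minus strand: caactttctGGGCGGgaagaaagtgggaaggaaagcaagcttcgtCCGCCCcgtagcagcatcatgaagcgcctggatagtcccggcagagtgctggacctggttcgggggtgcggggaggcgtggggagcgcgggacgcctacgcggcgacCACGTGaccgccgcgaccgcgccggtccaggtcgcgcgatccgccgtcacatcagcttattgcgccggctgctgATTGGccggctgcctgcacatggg
Dhcr7, chr7:143829964-143830213, plus strand: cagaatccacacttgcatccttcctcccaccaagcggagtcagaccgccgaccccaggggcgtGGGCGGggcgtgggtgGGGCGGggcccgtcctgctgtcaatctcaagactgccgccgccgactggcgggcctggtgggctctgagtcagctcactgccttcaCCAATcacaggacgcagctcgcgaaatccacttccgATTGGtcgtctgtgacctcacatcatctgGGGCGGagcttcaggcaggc

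The Ebp sequence held 2 CCAAT boxes, 55 and 170 bases before the start, and 1 GC box 33 bases before it. The Sc5d sequence held 1 CCAAT box, 2 GC boxes and 1 E-box, and the Dhcr7 sequence shown held 2 CCAAT boxes and 3 GC boxes. Counting any annotated start, CCAAT was found for 4 of the 4 genes of the set with an entry (Hmgcs1, Ebp, Sc5d and Dhcr7), for 11 of 14 other cholesterol synthesis enzymes and for 37.5% of all 27025 genes with an entry. GGGCGG was found for 4 of 4, for 12 of 14 and for 35.4% of all genes. CACGTG was found for 2 of 4 (Sc5d and Dhcr7), for 1 of 14 (Hsd17b7) and for 6.86% of all genes. The core CACNCCAC was found for 1 of 4 (Hmgcs1), for 1 of 14 (Acat2) and for 6.05% of all genes. No marked match overlapped another in the sequences shown, and the matches describe these windows only.

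Between 19757 and 20854 probes were detected on the E16 arrays and between 20023 and 20493 on the E13 arrays, and arrays of 1 stage correlated with each other at r of 0.954 to 0.982 at E16 and 0.966 to 0.985 at E13. The median deposited signal of the tested probes was 181 to 422 at E16, highest on array 95, and 266 to 334 at E13. E13 array 64 stood apart in markers of other cell types. The summed deposited signal of the 6 named erythroid markers was 735 to 7868 at E16, against 25368 on E13 array 64 and at most 580 on the other E13 arrays. In the same order the sums were 157 to 232, against 878 and at most 255, for endothelial and pericyte markers, and 6.46 to 64.2, against 562 and at most 39.0, for meningeal markers. They were 237 to 953, against 3467 and at most 628, for interneuron markers, and 36.2 to 85.0, against 192 and at most 62.6, for microglial markers. Of 6 named oligodendrocyte lineage markers, Olig2 and Sox10 were detected on no array, while Mbp (203 ± 31.4 at E16, 210 ± 37.7 at E13) and Cspg4 (38.7 ± 9.16 at E16, 33.5 ± 11.3 at E13) were detected on all 11. Neuron markers were high in sum on all arrays but uneven. The sum of 9 named ones was 29984 to 55513 at E16 and 35296 to 55680 at E13. Their mean normalized signals ran from 57.0 (E16) and 62.2 (E13) for Tubb3 to 14724 and 10673 for Neurod2. For 10 named IP markers the summed deposited signal was 20861 to 53636 at E16 and 37351 to 49857 at E13. The share of neuronal RNA in the sorted cells was not tested. Eomes, the gene of TBR2 and marker of the labelled cell type, read 1951 ± 558 at E16 and 2534 ± 172 at E13 (SD, n = 6 and 5, log2 fold change -0.43, adjusted p = 0.123 by limma). Its second probe, ILMN_2570496, read 757 ± 322 at E16 and 1217 ± 211 at E13 (log2 fold change -0.79, adjusted p = 0.0567). Whether either probe lies in the deleted part of the gene is not known, so they do not check the knockout. Of 9 IP markers tested, Sstr2 was called higher at E16 and Neurog1 and Dll1 lower, against 5.17% and 6.09% of all probes. Their median log2 fold change was -0.44, with 7 below 0 and 2 above, where 48.8% of all probes were below 0. By the adjusted p of limma alone, 4 were lower and 1 higher, against 9.41% and 8.52% of all probes.

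Between the stages, Ebp was the gene of the set whose signal differed clearly. Ebp fell at E16. One Fdps probe passed the adjusted p but not the fold threshold (-0.38), the other had -0.02, and Sqle (log2 fold change -0.09 and -0.34 over 2 probes), Dhcr7 (-0.15) and Sc5d (0.41) did not pass the test. Positive values are higher at E16. A probe was called where its adjusted p was under 0.05 and its change over 1.5-fold. By that measure 1 of the 7 probes was called, lower at E16, against 6.09% of the 16411 probes tested called lower and 11.3% called in either direction. By the adjusted p alone 2 of 7 were lower and 0 higher, against 9.41% lower and 8.52% higher of all probes. The median log2 fold change of the 7 probes was -0.15, and that of all probes 0.01. Fewer cells of a kind and less RNA per cell cannot be told apart in sorted bulk RNA.

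**Figure D1:**
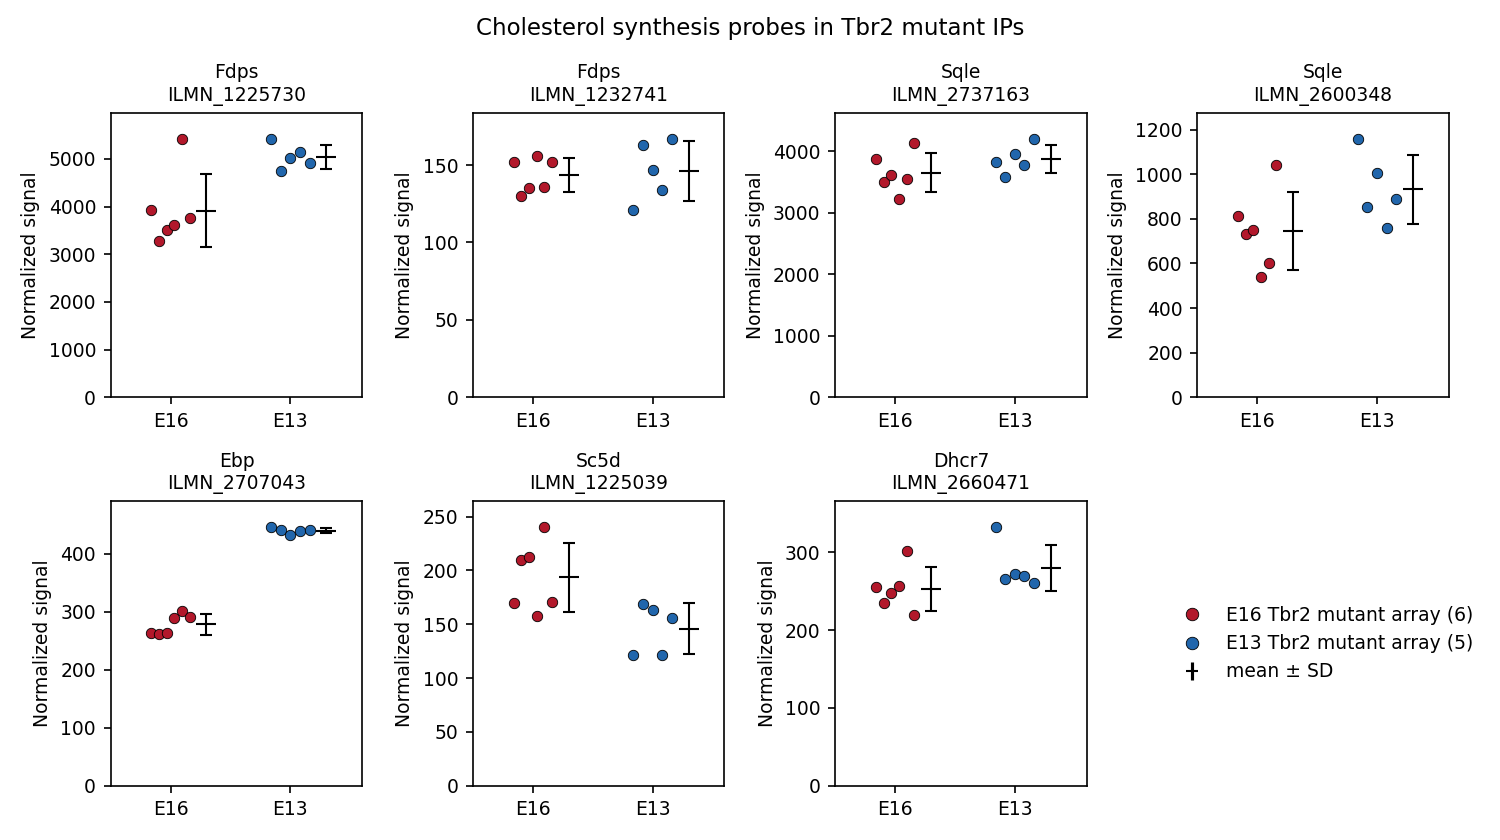
Quantile-normalized signal (vertical axes, linear, from 0) of the 7 tested probes on each array, E16 in red and E13 in blue, with the mean ± SD of each stage beside the points. The Ebp values do not overlap between stages (262 to 302 at E16, 433 to 446 at E13), and for Fdps 1 E16 array reaches the highest E13 value, 5420.

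Fdps encodes farnesyl diphosphate synthase, which makes the last intermediate shared by sterols, dolichol, ubiquinone and prenyl groups on proteins. Its probe ILMN_1225730 read 3926, 3285, 3497, 3611, 5420 and 3755 on the E16 arrays (numbers 11, 15, 80, 91, 95 and 97, the order kept below), against 5420, 4749, 5008, 5145 and 4911 on the E13 arrays (37, 40, 61, 64 and 65). All E16 arrays but array 95 lay below all 5 E13 arrays, and array 95 equalled the highest of them. The means were 3916 ± 769 and 5047 ± 254 (SD, n = 6 and 5), a log2 fold change of -0.38 ± 0.11 (SE, adjusted p = 0.0276 by limma), which is under 1.5-fold and therefore not called. Without E16 array 95 the log2 fold change was -0.49 with an adjusted p of 0.00069, and without E13 array 64 it was -0.38 with an adjusted p of 0.0574. A second Fdps probe, ILMN_1232741, assigned to the same transcript, read 143 ± 11.2 at E16 and 146 ± 19.4 at E13 (SD, n = 6 and 5). Its range was 130 to 156 at E16 and 121 to 167 at E13, and the log2 fold change was -0.02 ± 0.13 (SE, adjusted p = 0.931). The difference between the 2 probes was not tested.

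Sqle encodes squalene epoxidase, the first oxygen-dependent and a rate-limiting step of the sterol branch. Probe ILMN_2737163 read 3878, 3494, 3619, 3219, 3555 and 4130 at E16, against 3827, 3589, 3954, 3775 and 4204 at E13. The stages overlapped over most of their range, with means of 3649 ± 317 and 3870 ± 228 (SD, n = 6 and 5) and a log2 fold change of -0.09 (95% interval -0.24 to 0.07, adjusted p = 0.483). Probe ILMN_2600348 read 811, 732, 751, 539, 602 and 1041 at E16, against 1159, 851, 1006, 760 and 887 at E13. All E16 arrays but array 97 lay below the E13 median of 887, array 97 lay among the highest E13 values, and the log2 fold change of -0.34 ± 0.16 did not pass (SE, adjusted p = 0.167). One more Sqle probe, ILMN_2573600, was detected on 0 arrays, with deposited signals of -6.24 to 15.6.

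Ebp encodes the sterol isomerase that moves the ring double bond of zymosterol-type sterols, and its gene is on the X chromosome. It read 263, 262, 264, 289, 302 and 291 at E16, against 446, 441, 433, 440 and 442 at E13. All 6 E16 arrays lay below all 5 E13 arrays, a separation that 6.34% of all tested probes showed in that direction and 5.38% in the other. The means were 279 ± 17.6 and 440 ± 4.73 (SD, n = 6 and 5), so that the E16 level was 0.632 of the E13 level, a log2 fold change of -0.66 ± 0.10 (SE, 95% interval -0.85 to -0.47, adjusted p = 0.000321 by limma), the 408th smallest p of the 16411. The E13 arrays were closely alike for this probe. Their SD was 0.0155 on the log2 scale, and 1 other tested probe had a smaller one, while at E16 3.03% of probes had a smaller SD than Ebp.

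Because Ebp is X-linked, its values were set beside Xist, the RNA of the inactive X, which marks female embryos. Xist, counted where at least 3 of its 4 probes were detected, was present on 5 of the 6 E16 arrays and 2 of the 5 E13 arrays, and 1 probe was detected on E13 array 65. Ebp read 262 to 302 on the E16 arrays with Xist and 289 on the one without, against 440 and 441 on the E13 arrays with Xist and 433 to 446 on those without, so that within a stage the 2 kinds of array lay in the same range. With Xist detection as a covariate the log2 fold change of Ebp was -0.65 (adjusted p = 0.00224), and without E13 array 64 it was -0.66 (adjusted p = 0.00116).

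Sc5d encodes lathosterol desaturase, which makes 7-dehydrocholesterol. It read 170, 210, 212, 158, 240 and 171 at E16, against 121, 169, 163, 121 and 156 at E13. All E16 arrays but array 91 lay above every E13 array, and array 91 lay inside the E13 range. The means were 193 ± 32.0 and 146 ± 23.2 (SD, n = 6 and 5), and the log2 fold change of 0.41 ± 0.16 (SE, 95% interval 0.10 to 0.71) did not pass (adjusted p = 0.091 by limma). Among the 16 pathway genes tested it was the one above 0.

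Dhcr7 encodes the reductase that turns 7-dehydrocholesterol into cholesterol and is mutated in human Smith-Lemli-Opitz syndrome. It read 255, 235, 248, 256, 302 and 219 at E16, against 332, 265, 272, 270 and 261 at E13. The highest value was on E13 array 37, and E16 array 95 exceeded the other 4 E13 arrays. The means were 253 ± 28.0 and 280 ± 29.4 (SD, n = 6 and 5), a log2 fold change of -0.15 (95% interval -0.39 to 0.09, adjusted p = 0.43).

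Of 13 other enzymes of the pathway with a named probe, 11 were tested (Mvk and Idi2 were not detected on every array). With the brightest probe of each gene, 11 of the 11 had a log2 fold change below 0, with a median of -0.42, where 48.8% of all probes were below 0. With array weights 9 of the 11 were, and of the 3 Erg28 probes, whose brightest had -0.05, one had 0.15 and one -0.17. None of the 11 was called, where 6.09% of all probes were called lower. Of the 11, 4 were lower at an adjusted p under 0.05, against 9.41% of all probes, and 7 had an unadjusted p under 0.05. Lanosterol synthase, Lss, read 626, 536, 469, 357, 401 and 367 at E16, against 702, 602, 664, 760 and 624 at E13. Only array 11 of E16 reached into the E13 range, and the log2 fold change was -0.57 ± 0.15 (SE, adjusted p = 0.0166 by limma). Msmo1, the sterol methyl oxidase of the C4 demethylation, read 1435, 1424, 1262, 1140, 1600 and 1425 at E16, against 1937, 1884, 1892, 1588 and 1954 at E13. Apart from E13 array 64, which held the lowest E13 value, the stages did not overlap, and the log2 fold change was -0.43 ± 0.10 (SE, adjusted p = 0.00838). Lbr, a lamin receptor that is also a sterol reductase, read 658 to 1087 at E16 (median 888) and 1100 to 1339 at E13 (median 1175), without overlap (log2 fold change -0.45, adjusted p = 0.031, and 0.0593 without E13 array 64). Nsdhl, the X-linked dehydrogenase that works beside Msmo1, read 168 to 311 at E16 and 289 to 360 at E13 with its brightest probe (log2 fold change -0.53, adjusted p = 0.032). With Xist detection as a covariate, Nsdhl had -0.55 with this probe and did not pass (adjusted p = 0.0669 by limma). Its other 3 probes had log2 fold changes of -0.35, -0.37 and -0.48 that did not pass.

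The mevalonate enzymes Pmvk (-0.42), Idi1 (-0.42) and Mvd (-0.37) did not pass the test, with adjusted p of 0.0683, 0.0731 and 0.152. Neither did the later Hsd17b7 (-0.21), Cyp51 (-0.13), Tm7sf2 (-0.06) and Erg28 (-0.05). Over the set and the other enzymes together, 6 of 16 genes were lower at an adjusted p under 0.05 alone (Ebp, Fdps, Lbr, Lss, Msmo1 and Nsdhl), against 9.41% of all probes. Of the 16, 0 were higher, 15 lay below 0 and the median was -0.38. This count with no fold threshold was made after the values were seen. Without E13 array 64 it was 4 of 16, and 9 of the 11 other enzymes lay below 0. It was 3 of 16 without E13 array 37, without E13 array 61 or without E16 array 91, and 2 with no detection filter.

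**Figure D2:**
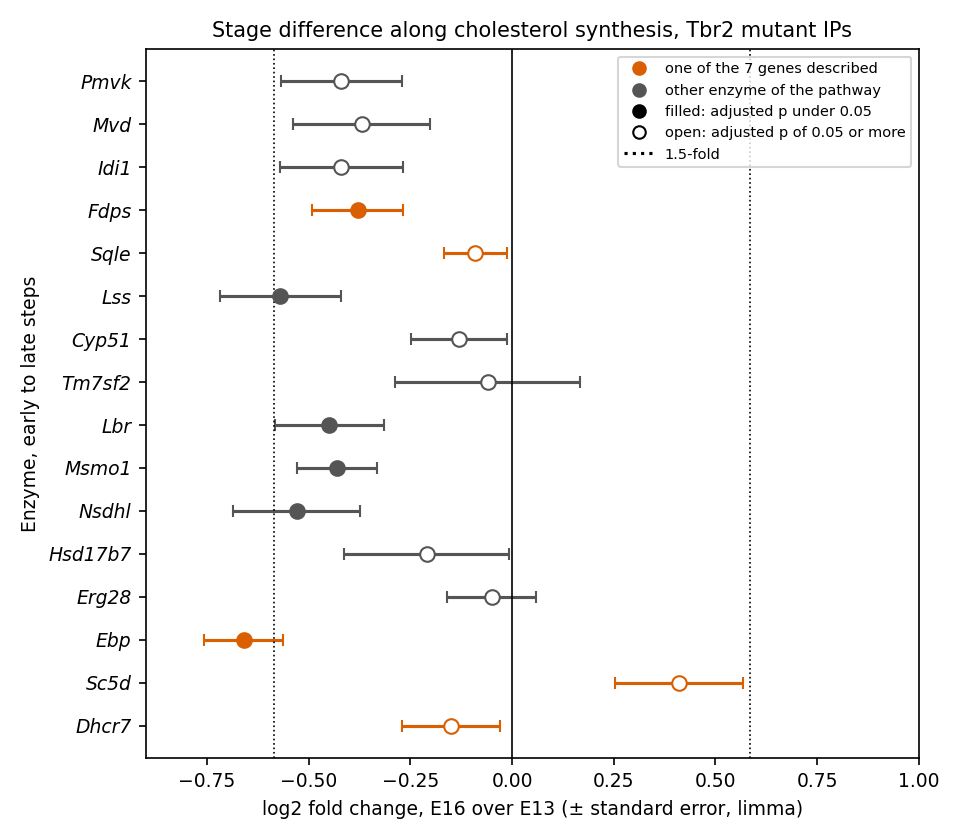
Log2 fold change of E16 over E13 (horizontal axis, ± standard error from limma) for the 16 tested enzymes in the order of the pathway, early steps at the top, with genes of the set in orange, other enzymes in grey, filled points at an adjusted p under 0.05 and dotted lines at 1.5-fold. Ebp alone passes both thresholds at -0.66, and Sc5d alone is above 0 at 0.41.

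No tested gene that controls or accompanies the pathway was called lower at E16, where 6.09% of all probes were. None of the 6 SREBP regulators tested was called in either direction by limma, against 11.3% of all probes. With so few genes, none called is near that share. None of the 6 had an unadjusted p under 0.05. Srebf2, which encodes SREBP2, read 798 ± 165 at E16 and 770 ± 140 at E13 (SD, n = 6 and 5, log2 fold change 0.04, adjusted p = 0.884), and its second probe had a log2 fold change of 0.13. Srebf1, the factor more tied to fatty acid synthesis, had 0.34 (adjusted p = 0.233). Insig1, a sterol-induced brake on SREBP release that is itself an SREBP target, had 0.00, -0.12 and -0.21 over 3 probes, with adjusted p of 0.992, 0.794 and 0.716.

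Of 8 sterol uptake and transport genes tested, 1 was called higher at E16, where 5.17% of all probes were. This was Lrp8, a receptor for apolipoprotein E and reelin, with 925 ± 90.7 at E16 and 567 ± 160 at E13 (SD, n = 6 and 5, log2 fold change 0.75 ± 0.17 SE, adjusted p = 0.00739). Vldlr, its partner reelin receptor, rose by 0.46 on the log2 scale, under 1.5-fold (adjusted p = 0.0316), and the largest value in the other direction was Npc2 at -0.32 (adjusted p = 0.125). Of 3 genes of sterol efflux, storage and turnover tested, Cyp7b1, an oxysterol hydroxylase, was called higher, with 246 ± 59.4 at E16 and 138 ± 31.4 at E13 (SD, n = 6 and 5, log2 fold change 0.84, adjusted p = 0.00882). None of 9 fatty acid SREBP targets was called (3 had an unadjusted p under 0.05), with Elovl6 (0.51, adjusted p = 0.00668) and Elovl5 (0.29, adjusted p = 0.00624) higher under 1.5-fold and Acss2 lowest at -0.16. None of 9 non-sterol isoprenoid enzymes was called, from Zmpste24 at -0.08 to Dhdds at 0.41, and 1 had an unadjusted p under 0.05. The third of these fatty acid genes, Fads1, and the isoprenoid one, Dhdds, did not pass the adjusted p (0.137 and 0.0709 by limma). Over all probes, 11.3% were called in either direction.

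**Figure D3:**
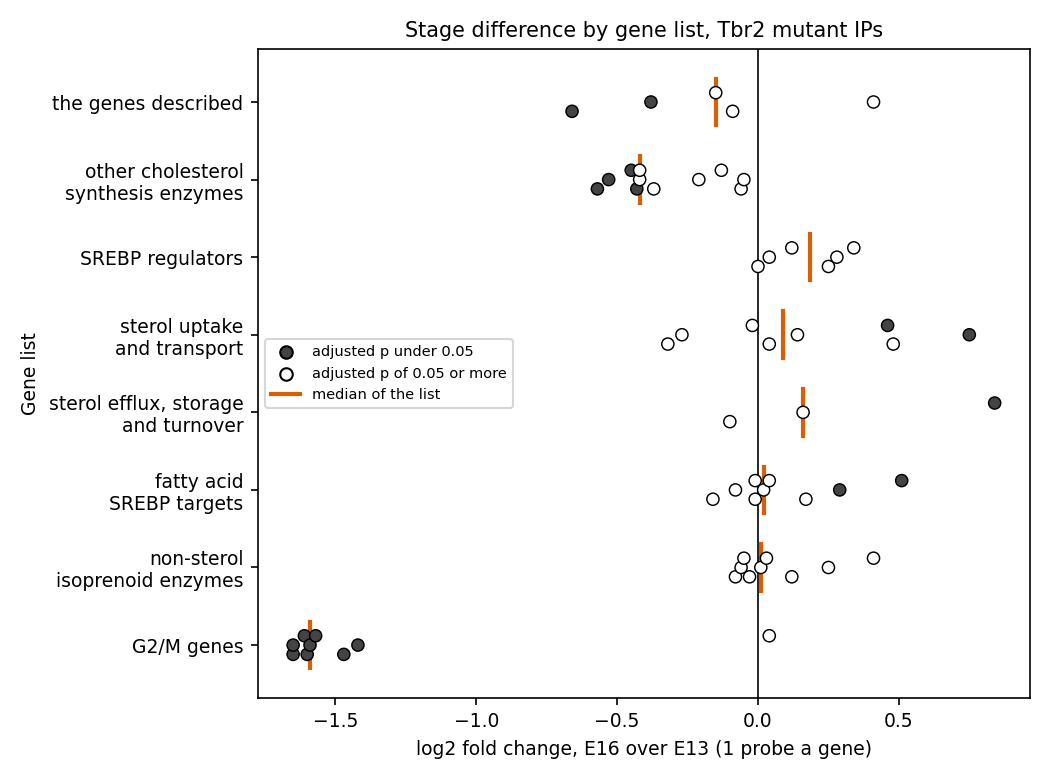
Log2 fold change of E16 over E13 (horizontal axis) of every tested gene in 8 lists, 1 probe a gene, filled where the adjusted p was under 0.05, with an orange bar at the median of each list. The other cholesterol synthesis enzymes have a median of -0.42 and the SREBP regulators 0.19, while 8 of 9 G2/M genes lie between -1.65 and -1.42.

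Genes of the G2 and M phases of the cell cycle moved with stage as well. Over all probes, 6.09% were called lower at E16 and 5.17% higher. Of 9 G2/M genes tested, 8 were called lower at E16. Log2 fold changes were -1.65 for Birc5 and Nusap1 and -1.57 for Cdc20, and Plk1 had 0.04. The summed deposited signal of the 12 named G2/M genes was 2561 to 5721 at E16 and 9691 to 12660 at E13, without overlap. Radial glial markers were mixed (Slc1a3 higher at 1.58, Vim and Nes lower at -1.77 and -0.71, of 8 tested). Neuron markers were mixed as well, and of 9 tested Neurod6 was called higher at 0.98. Under 1.5-fold, Neurod2 (0.47, adjusted p = 0.00791 by limma) and Dcx (0.31, adjusted p = 0.0383) were higher and Rbfox3 (-0.54, adjusted p = 0.0173) lower. The part of these shifts in the values of Ebp, Fdps and the other enzymes was not tested.

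Over the 21 pairs of the 7 probes, the correlation of deviations from the stage means across the 11 arrays ranged from -0.52 to 0.74 with a median of -0.02, and 10 pairs were above 0. The highest were Fdps (ILMN_1225730) with Dhcr7 (0.74), the 2 Sqle probes (0.73) and Fdps with Ebp (0.67). Their mean profile, taken over 1 probe a gene, was highest on E16 array 95, at 1.5 standardized units against -0.64 to 0.26 on the other 10 arrays. Fdps (ILMN_1225730), Sc5d, Dhcr7 and Ebp each had their highest E16 value on array 95, while the Sqle probes had theirs on array 97.

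**Figure D4:**
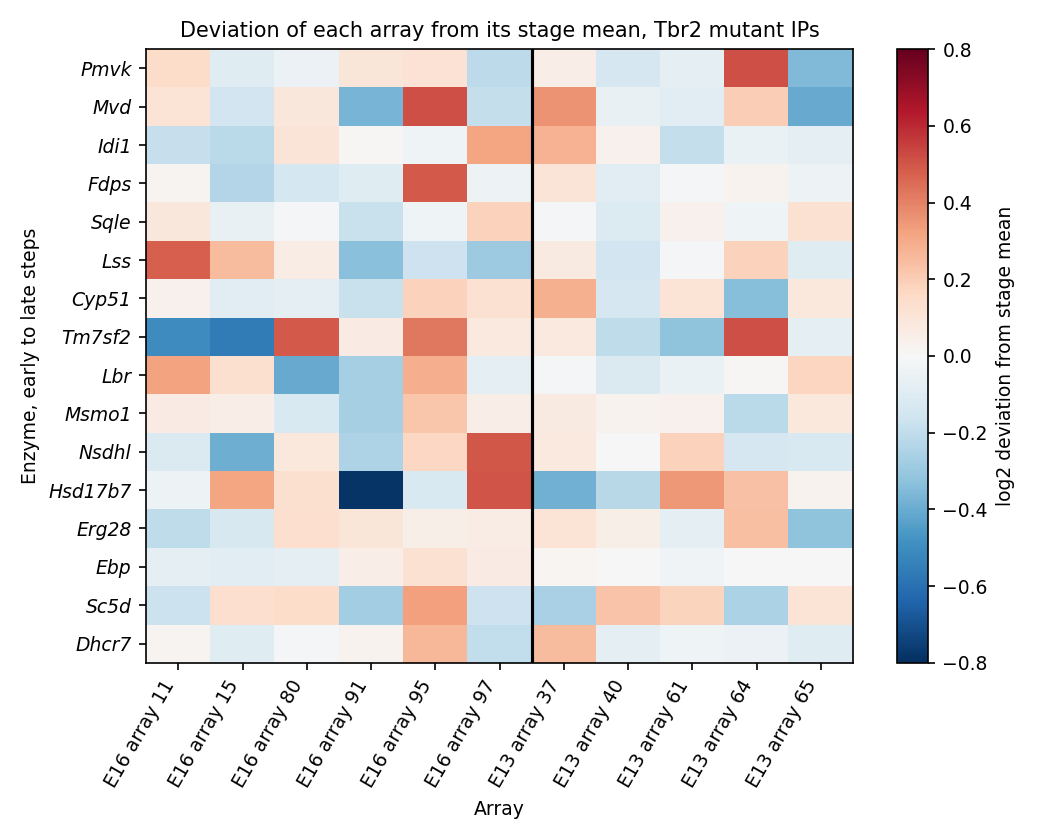
Deviation of each array from the mean of its own stage (colour, log2 scale) for the 16 tested enzymes in pathway order, with the 6 E16 arrays left of the black line and the 5 E13 arrays right of it. The Ebp row is nearly blank at E13, and E16 array 95 is above its stage mean for Fdps, Sc5d and Dhcr7.

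Among probes with 1 symbol outside the set, the profiles most like the mean profile over the 11 arrays were those of Psmb6 (r = 0.92), Pigq, Serinc2 and Setdb1 (0.89 each), Mtpn and Nup133 (0.88 each), and Slc25a15, Mcm7, Gfm1 and Bcl2l13 (0.87 each), where the median over all such probes was 0.03. Without E16 arrays 95 and 15 these correlations were 0.18 to 0.84 over 9 arrays, so that the likeness of several rested on those arrays. Among the other enzymes, Msmo1 (r = 0.68, rho = 0.82) and Cyp51 (r = 0.65, rho = 0.88) followed the profile most closely, at 0.85 and 0.87 without the same 2 arrays, while Mvd went to 0.09 without them, against 0.58 with them. All of these values share the arrays and their normalization, and they are descriptions.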

How the data were processed

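Mut IPs of both stages were profiled on Illumina bead arrays from biotinylated cRNA. The authors deposited, per array, signal intensity values and a detection p-value, both without normalization between arrays, and a second table of normalized log2 values for 15825 probes, which served as an alternative. Image processing and normalization software was not given in the sources used here. A table with 22 columns of 11 further arrays was not used, because its columns match no sample here.

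Probes with a detection p-value under 0.05 on all 11 arrays (16411) were quantile-normalized and log2-transformed. They were modelled with limma 3.58.1 in R 4.3.3 (lmFit, eBayes with trend, stage as the only term), with Benjamini-Hochberg adjustment over all probes. Calls required an adjusted p under 0.05 and over 1.5-fold. Where a gene had several probes, lists used the brightest tested one. Symbols came from the platform annotation, with 34885 probes of 1 symbol, 18 of several and 10378 unnamed, and no symbol changed on updating. Array numbers could not be tied to replicate numbers. The number of arrays limits the precision.

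Members and lists were chosen with earlier results of these data known. Named were all probes of the set, the called genes or largest changes of each list, SREBP genes, Eomes, Xist and the 10 most alike probes. The fit was tested on simulated data. Alternatives covered filters, normalization, arrays left out, array weights, Xist and the authors' table. In that table replicate numbers did not pair the samples (same-number correlations -0.25 to 0.17).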

Additional observations from a re-analysis of the deposited data

Results flagged for a closer look

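In 4 of 52 groups of arrays examined, the highest or lowest array lay apart from the rest of its stage by more than Dixon's 95% limit, where chance gives 2.6. Fdps (ILMN_1225730) read 5420 on E16 array 95, with the other E16 arrays at 3285 to 3926. Dhcr7 read 332 on E13 array 37, with the others at 261 to 272. Msmo1 read 1588 on E13 array 64, with the others at 1884 to 1954, and Insig1 (ILMN_1245272) read 50.6 on the same array, with the others at 99.9 to 120.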

How the results depend on the processing

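Ebp was called in all 24 alternatives, with log2 fold changes of -0.69 to -0.63 and adjusted p of 9.21e-05 to 0.0097. The largest p was with the replicate block, in the authors' table, where its log2 fold change was -0.68. Fdps (ILMN_1225730) kept an adjusted p under 0.05 in 12 of 24 alternatives (up to 0.129) and Sc5d in 0 of 24 (0.0766 to 0.231). Sqle (ILMN_2600348) passed in 2, the replicate block (adjusted p = 0.0298) and array weights (0.0479). The second Fdps probe, -0.02 in the report, turned to 0.02 without E13 array 40, 0.03 without E13 array 65, 0.01 without E16 array 15 and 0.04 without E13 array 40 and E16 array 80 together.

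With no fold threshold 2943 probes passed instead of 1848, 2 member probes instead of 1 (Fdps added at -0.38) and 4 other enzymes instead of 0. Of the other enzymes, 1 was called with the replicate block and with array weights (Nsdhl both times), and 1 with Xist as a covariate and without E13 array 40 and E16 array 80 (Lss both times). Pathway genes lower at the adjusted p alone, 6 of 16, were 2 with no detection filter (Ebp and Msmo1), 3 with the replicate block, 3 with Xist as a covariate and 3 without E13 array 40 and E16 array 80. Leaving out 1 array at a time gave 1515 to 1872 probes called, 1 member probe each time, 0 to 1 other enzymes (Lss without E13 array 40 or 65 or E16 array 11 or 15, Nsdhl without E16 array 97), 3 to 6 pathway genes (3 without E13 array 37 or 61 or E16 array 91), and medians of -0.20 to -0.09 for the member probes and -0.44 to -0.32 for the other enzymes. The causes were not tested. The precision is limited by the 6 and 5 arrays.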
